A study of Mus musculus with 18 samples.

Results

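Myoepithelial cells form the contractile outer layer of the mammary epithelium, and 8 genes of their contractile machinery were followed here through all groups of the study: Acta2, Oxtr, Tagln, Cnn1, Myh11, Mylk, Myl9 and Tpm2. The genes were taken by name, and each was found once among the 52636 genes of the deposited count tables. RNA had been sequenced from cells sorted by flow cytometry out of mouse mammary glands, in 18 libraries that form 6 groups of 3 biological replicates. The 2 gates were one that the titles call N and the mature luminal gate (ML). The groups were D542G N, Y541S N, WT N, D542G ML, Y541S ML and WT ML. D542G and Y541S name mutant forms of the Esr1 gene, which encodes estrogen receptor alpha, and WT mice were wild type for it; the labels do not say whether mutant mice carried 1 or both copies. All mice, the wild type included, were 6 months old, carried hormone pellets (estradiol, E2, with progesterone, P4) and were then dosed by mouth with giredestrant, an antagonist of estrogen receptor alpha, at 30 mg/kg daily for 4 days. No untreated group was analysed here, so every level below is a level under the antagonist. The sample source of both gates is given as mature luminal cells, and the study's title asks whether rare cells induced by estrogen receptor antagonism are also present in wild-type tissue.

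In lactation, oxytocin from the pituitary binds its receptor Oxtr on myoepithelial cells, which couples through Gq proteins and phospholipase C to a rise of calcium. Calcium-bound calmodulin activates myosin light chain kinase (Mylk), which phosphorylates the regulatory light chain Myl9, and the smooth muscle myosin heavy chain Myh11 then pulls on filaments of smooth muscle alpha-actin (Acta2). Tropomyosin (Tpm2), calponin (Cnn1) and transgelin (Tagln, also called SM22) bind those filaments. Vascular smooth muscle cells and pericytes use the same proteins, and serum response factor (SRF) with its myocardin family cofactors is known to drive many of these genes through CArG boxes, stretches of A and T letters framed by CC and GG.

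The stretches of 250 bases before the RefSeq start sites of Acta2, Myl9 and Oxtr are shown because the gene of the filament and the gene of the light chain carry CArG-type letters there and the gene of the receptor does not. They come from RefSeq on GRCm38.p6, run 5′ to 3′ on the gene's strand, and lie at chr19:34255374-34255623 (minus strand), chr2:156775214-156775463 (plus strand) and chr6:112489826-112490075 (minus strand). Capitals mark CArG boxes and runs that differ from one by 1 core letter.
Acta2: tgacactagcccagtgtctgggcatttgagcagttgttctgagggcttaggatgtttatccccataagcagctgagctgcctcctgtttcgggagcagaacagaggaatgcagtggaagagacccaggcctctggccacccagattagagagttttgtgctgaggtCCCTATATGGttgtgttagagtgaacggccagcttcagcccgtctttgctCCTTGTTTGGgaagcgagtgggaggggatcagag
Myl9: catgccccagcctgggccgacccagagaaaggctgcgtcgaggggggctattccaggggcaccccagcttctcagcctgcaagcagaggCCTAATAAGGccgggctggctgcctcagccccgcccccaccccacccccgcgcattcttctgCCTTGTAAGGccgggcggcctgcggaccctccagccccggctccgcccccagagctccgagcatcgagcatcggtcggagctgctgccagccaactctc
Oxtr: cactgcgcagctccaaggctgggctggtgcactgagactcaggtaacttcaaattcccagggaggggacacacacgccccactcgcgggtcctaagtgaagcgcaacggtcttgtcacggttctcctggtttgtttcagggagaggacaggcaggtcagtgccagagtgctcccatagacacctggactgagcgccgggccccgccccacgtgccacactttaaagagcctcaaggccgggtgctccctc
Myl9 holds a CArG box, CCTAATAAGG, at 161 to 152 bases before the start, and the near match CCTTGTAAGG at 99 to 90. Acta2 holds near matches only, CCCTATATGG at 84 to 75 and CCTTGTTTGG at 34 to 25 bases before the start. These patterns read alike on both strands and the exact and near forms exclude each other. Of 32851 mouse promoter windows of the same length, 1.47% held an exact CArG box and 7.24% a near match. RefSeq windows were found for 6 of the 8 genes, and those of Cnn1, Mylk, Oxtr and Tpm2 held neither form. The palindromic estrogen response element, GGTCA and TGACC with a spacer of 3 bases, was found in 0.0639% of all windows and was in none of the 6. Oxtr had a single GGTCA arm of that element at 97 to 93 bases before the start, and Mylk and Tpm2 had its reverse complement TGACC; 35.2% of all windows hold GGTCA or TGACC. These are matches of letters, and no binding was measured.

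The genes lie apart in the genome (GRCm38, GENCODE M21). Acta2 (ENSMUSG00000035783) spans chr19:34241090-34255590 on the minus strand, Oxtr (ENSMUSG00000049112) chr6:112473683-112489943 on the minus strand, and Myl9 (ENSMUSG00000067818) chr2:156775420-156781658 on the plus strand. Tpm2 (ENSMUSG00000028464) spans chr4:43514711-43523765 on the minus strand. Tagln (ENSMUSG00000032085, chr9:45929619-45936058, minus strand) and Cnn1 (ENSMUSG00000001349, chr9:22099216-22109630, plus strand) share a chromosome, as do Myh11 (ENSMUSG00000018830, chr16:14194535-14291372, minus strand) and Mylk (ENSMUSG00000022836, chr16:34745210-35002420, plus strand). Of protein-coding genes whose exons all lie inside another gene, 80.1% were at 0 in all libraries, against 4.04% of those with some exon bases inside another gene and 19.7% of those with none. For Tagln 67.9% of the exon bases are shared with Pcsk7 or the antisense gene Gm48529, and what this did to its count was not tested. Mylk shares 6.9% of its exon bases with antisense genes, and the other 6 genes share none.

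Libraries held 34797778 to 49507144 gene counts. Values are CPM, a gene's counts relative to the total of its library after TMM scaling. The basal cytokeratin Krt14 stood at 9464 to 19469 CPM in 8 of the 9 N libraries, and the 6 basal markers Krt5, Krt14, Krt17, Trp63, Cdh3 and Snai2 were all called higher in N than in ML over the genotypes, while the 8 luminal markers Krt8, Krt18, Krt19, Epcam, Cldn3, Cldn4, Cldn7 and Muc1 were all called lower. The library WT N 3 stood apart: its Krt14 was 2170 CPM and its luminal cytokeratin Krt18 was 4581 CPM, and it correlated at 0.754 and 0.766 with the other WT N libraries. Y541S N 3 differed from its group to a lesser degree. It correlated at 0.872 with Y541S N 1 and 0.849 with Y541S N 2, which correlated with each other at 0.933. The epidermal keratinocyte marker Krt10 was 6005 CPM in Y541S N 3, against 12.7 CPM in Y541S N 1 and 13.5 CPM in Y541S N 2. In the ML gate, Krt14 was at 3862 CPM in WT ML 1 and 2925 CPM in WT ML 2, against 50.1 to 839 CPM in the other 7. The order and ratios of group means with WT N, and the calls that WT N 3 changes, are given also without it.

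**Figure D1:**
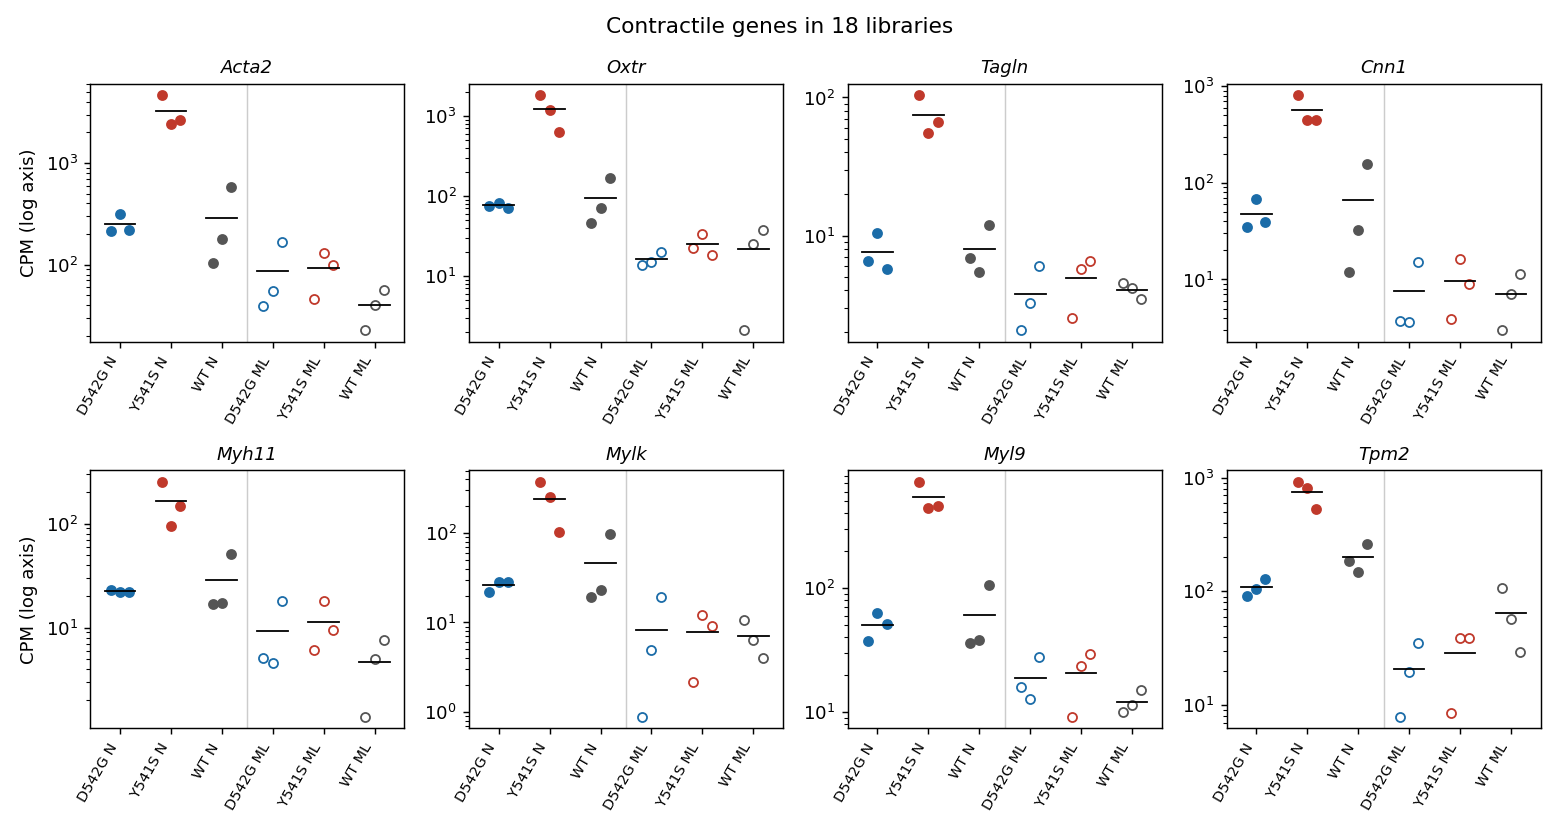
CPM of the 8 contractile genes (log axis) in each of 18 libraries; filled points are N libraries, open points are ML libraries, and lines mark group means of 3 libraries. In every panel the 3 Y541S N libraries lie above all other libraries, and WT N 3 is the highest of the WT N libraries.

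Oxtr, the receptor at the head of the pathway, had 75.7, 81.2 and 71.0 CPM in D542G N, 1808, 1183 and 623 CPM in Y541S N, and 45.3, 71.5 and 166 CPM in WT N. In the ML gate it had 13.7, 14.7 and 19.9 CPM in D542G, 22.3, 33.3 and 18.5 CPM in Y541S, and 2.11, 25.3 and 37.2 CPM in WT. Each N library lay above each ML library for Oxtr, and the Y541S N libraries lay well above the other N libraries.

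Acta2, the main actin of the contractile filament, had 214, 318 and 221 CPM in D542G N, 4637, 2436 and 2673 CPM in Y541S N, and 104, 181 and 581 CPM in WT N. In the ML gate it had 39.4, 54.9 and 167 CPM in D542G, 46.2, 131 and 99.8 CPM in Y541S, and 22.8, 40.5 and 56.3 CPM in WT. The highest ML libraries thus reached the lower N libraries, while Y541S N stood alone.

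Myl9, the light chain that Mylk phosphorylates, had 37.3, 62.8 and 50.9 CPM in D542G N, 716, 441 and 456 CPM in Y541S N, and 36.0, 38.1 and 107 CPM in WT N. In the ML gate it had 15.9, 12.7 and 27.9 CPM in D542G, 9.17, 23.3 and 29.1 CPM in Y541S, and 9.90, 11.3 and 14.99 CPM in WT. As for Oxtr, all 9 N libraries lay above all 9 ML libraries, which held for 2 of the 8 genes and for 1.48% of all genes tested.

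Mylk, the kinase, had 21.9, 28.6 and 28.2 CPM in D542G N, 371, 253 and 103 CPM in Y541S N, and 19.2, 22.9 and 97.4 CPM in WT N. In the ML gate it ranged from 0.885 CPM in D542G ML 1 to 19.2 CPM in D542G ML 3. Here the lowest Y541S N library, Y541S N 3, lay only just above WT N 3.

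Myh11, the myosin heavy chain, had 22.9, 22.05 and 22.2 CPM in D542G N, 251, 94.5 and 149 CPM in Y541S N, and 17.0, 17.2 and 51.1 CPM in WT N. Its ML libraries ranged from 1.39 CPM in WT ML 1 to 18.2 CPM in D542G ML 3. The D542G N libraries were almost equal to each other, with a mean of 22.4 ± 0.437 CPM (SD, n = 3).

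Of the filament-binding proteins, Cnn1 had 34.8, 67.4 and 39.6 CPM in D542G N, 808, 447 and 445 CPM in Y541S N, and 11.9, 32.2 and 156 CPM in WT N. Tpm2 had 91.8, 104 and 129 CPM in D542G N, 914, 811 and 533 CPM in Y541S N, and 185, 148 and 263 CPM in WT N. Tpm2 was the only one of the 8 genes for which all D542G N libraries lay below all WT N libraries, a pattern that 11.0% of all genes tested showed. Tagln had 6.53, 10.5 and 5.75 CPM in D542G N, 104, 54.9 and 66.1 CPM in Y541S N, and 6.84, 5.43 and 11.8 CPM in WT N. In the ML gate Cnn1 lay at 3.00 to 16.2 CPM, Tpm2 at 7.89 to 106 CPM and Tagln at 2.07 to 6.57 CPM. The top ML value of Tpm2 was that of WT ML 1, one of the libraries with Krt14.

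Ordered by group mean, Y541S N came highest, then WT N and then D542G N for each of the 8 genes, followed by the ML groups in changing order. The place of WT N above D542G N rests on WT N 3: without it, the mean was higher in D542G N than in WT N for 7 of the 8 genes, all but Tpm2. The 3 Y541S N libraries lay above all 15 others for 8 of 8 genes, which 2.4% of all genes tested did, by a narrow margin for Mylk. WT N and D542G N overlapped except for Tpm2, and the ML groups overlapped each other for every gene. Per kilobase of exon, which allows levels to be compared between genes, Y541S N averaged 1479 CPM for Acta2, 463 CPM for Myl9, 259 CPM for Tpm2, 251 CPM for Oxtr and 207 CPM for Cnn1. The long heavy chain and kinase transcripts were lower, at 21.7 CPM per kilobase for Myh11 and 21.5 CPM for Mylk, and Tagln, with its overlapping exons, stood at 37.7 CPM. In these bulk libraries, more contractile cells and more contractile RNA per cell cannot be told apart.

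The first comparison asks how the N gate differs from the mature luminal gate. Over the genotypes with equal weight, all 8 contractile genes were higher in N than in ML by edgeR's quasi-likelihood test with Benjamini-Hochberg adjustment over the 18298 genes tested, where 13.8% of all genes were called higher. Log2 fold changes ran from 1.97 ± 0.26 (SE) for Tagln to 3.91 ± 0.53 for Cnn1, with a median of 3.01 against -0.03 over all genes. Oxtr rose by 3.33 ± 0.43, Acta2 by 3.17 ± 0.40, Mylk by 3.11 ± 0.55 and Myl9 by 2.82 ± 0.29 on the log2 scale, with edgeR adjusted p-values from 1.24e-05 to 0.000959 over the 8 genes. All 8 stayed called with each library left out in turn.

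Taken by genotype, the median fold change between the gates was highest in Y541S. In Y541S all 8 genes were called higher in N than in ML (4.22% of all genes), with log2 fold changes from 3.88 ± 0.74 for Myh11 to 5.87 ± 1.0 for Cnn1 and edgeR adjusted p from 0.000257 to 0.0104. The ratio of group means there ran from 14.7 for Myh11 to 58.7 for Cnn1. Only Mylk lost its call on leaving out a library, Y541S ML 1, with 7 genes called.

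D542G N exceeded D542G ML by ratios of group means of 2.0 for Tagln to 6.27 for Cnn1, and all 3 N libraries lay above all 3 ML libraries for 7 of the 8 genes, which 19.4% of all genes did. The exception was Tagln. In edgeR only Tpm2 was called (4.71% of all genes higher), at a log2 fold change of 2.37 ± 0.61 with adjusted p = 0.0256; the other 7 had positive log2 fold changes of 1.0 to 2.65 and adjusted p of 0.0656 to 0.278. With same-numbered libraries of a genotype as a block, Cnn1, Oxtr and Tpm2 were called, 3 genes. Leaving out D542G ML 1, D542G ML 2 or any D542G N library left 0 genes called, leaving out D542G ML 3 gave 3, and leaving out WT N 3 gave 4. Leaving out WT ML 1 or WT N 1 gave 2.

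WT N exceeded WT ML by ratios of group means of 1.98 for Tagln to 9.33 for Cnn1. Without WT N 3 these ratios were 1.51 for Tagln to 3.65 for Myh11, with Cnn1 at 3.08. With it, all 3 N libraries lay above all 3 ML libraries for 8 of 8 genes, against 9.29% of all genes. In edgeR, Acta2 was called at a log2 fold change of 2.86 ± 0.68 with adjusted p = 0.0329, and Myl9 at 2.32 ± 0.49 with adjusted p = 0.0197, 2 of 8 genes where 2.14% of all genes were called higher. The other 6 had log2 fold changes of 0.98 to 3.22 and adjusted p of 0.0548 to 0.222. With the block, Acta2, Myh11, Myl9 and Oxtr were called, 4 genes. No gene was called once any WT ML library was left out, 4 were without D542G ML 3, and only Myl9 without WT N 2 or D542G N 3; without WT N 3, Acta2 and Myl9 were called.

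**Figure D2:**
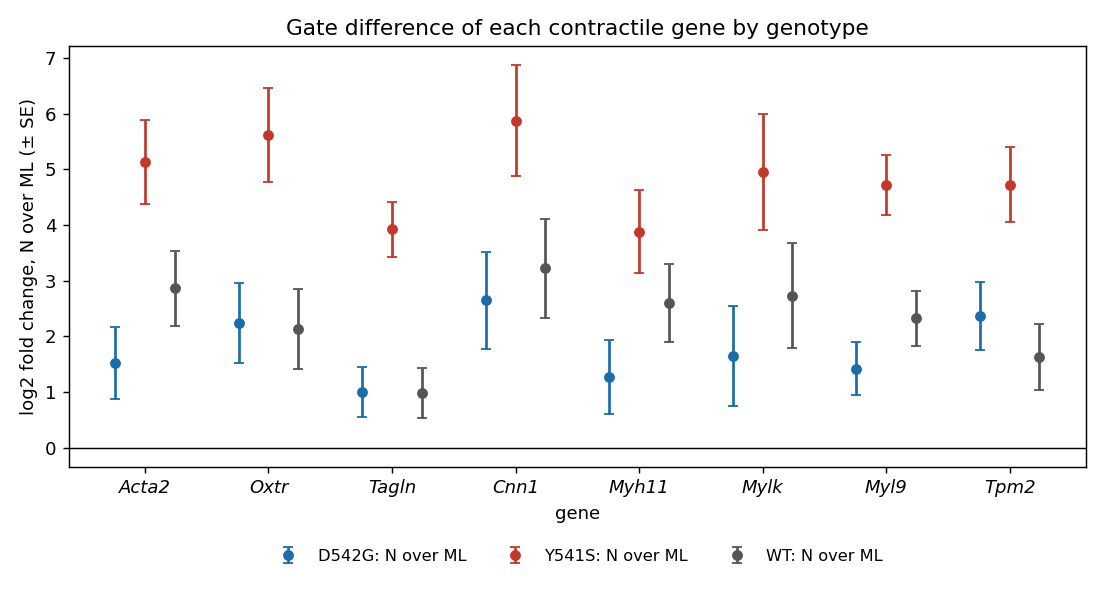
Log2 fold change of N over ML for each contractile gene, from the edgeR model, with its standard error; colours mark the genotype and each point compares 3 N with 3 ML libraries. The Y541S points lie highest for every gene, from 3.88 for Myh11 to 5.87 for Cnn1, and the D542G and WT points overlap within their errors for all genes but Acta2.

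Whether the gate difference itself differed between genotypes was tested as an interaction. Against WT, the Y541S gate difference was larger by 1.28 to 3.48 on the log2 scale, but 0 of 8 genes passed the edgeR test (0.0% of all genes were called). Unadjusted p was under 0.05 for 6 of them, and Tagln had the smallest adjusted p, 0.259, at 2.94 ± 0.64. DESeq2 called 4 genes and limma-voom called 6 in this interaction. Over all genes, DESeq2 called 143 of 17450 higher and limma-voom 248 of 18298. The D542G gate difference was smaller than that of Y541S in each of the 8 genes, with log2 differences of -3.61 to -2.35. Of these, 0 were called by edgeR (0.0492% of all genes were called lower), 8 had an unadjusted p under 0.05, 4 were called by DESeq2 and 4 by limma-voom. Over all genes, DESeq2 called 195 of 17103 lower and limma-voom 129 of 18298. Myl9 had the smallest adjusted p by edgeR, 0.0973, at a log2 difference of -3.29 ± 0.67, and it alone was called when WT N 3 was left out. Against WT, the D542G gate difference did not pass for any of the 8 genes by edgeR (0.109% of all genes were called), DESeq2 or limma-voom, with 0 at unadjusted p under 0.05.

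Within the N gate, the contractile genes separated Y541S from WT. Ratios of group means ran from 3.79 for Tpm2 to 12.8 for Oxtr. Without WT N 3 they ran from 4.52 for Tpm2 to 25.7 for Cnn1, against 8.51 for Cnn1 with it; that of Acta2 was 22.8, against 11.2 with it, and that of Oxtr was 20.6. With all libraries, the 3 Y541S libraries lay above the other 6 N libraries for 8 of 8 genes, against 4.31% of all genes. In edgeR 4 of 8 genes were called higher, where 1.02% of all genes were: Tagln at a log2 fold change of 3.22 ± 0.48 with adjusted p = 0.00616, Myl9 at 3.16 ± 0.50 with adjusted p = 0.00849, Acta2 at 3.49 ± 0.69 with adjusted p = 0.0268 and Oxtr at 3.67 ± 0.76 with adjusted p = 0.0323. Cnn1, Myh11, Mylk and Tpm2 had log2 fold changes of 1.92 to 3.09 and adjusted p of 0.101 to 0.248. The median over the 8 genes was 3.12, against -0.04 over all genes.

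These calls depend on which library is left out. Without WT N 1 or without WT N 2, only Tagln was called, 1 gene; without Y541S N 1 or Y541S N 2, Myl9 and Tagln were, 2 genes. Without WT N 3, Cnn1 and Myh11 were called as well, 6 genes. Oxtr alone lost its call without D542G ML 2 or any of the D542G N libraries, which left 3. With only the Y541S N and WT N libraries in the fit 0 genes were called, while DESeq2 called 7 and limma-voom 8. Over all genes, DESeq2 called 815 of 17103 higher and limma-voom 1251 of 18298.

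D542G N lay far below Y541S N for the same genes, with ratios of group means of 0.0631 for Oxtr to 0.144 for Tpm2. The 2 comparisons share the Y541S N libraries. In edgeR 5 of 8 genes were called lower, where 1.01% of all genes were. Log2 fold changes were -3.99 ± 0.77 for Oxtr with edgeR adjusted p = 0.0183, -3.70 ± 0.70 for Acta2 with 0.0164, -3.42 ± 0.51 for Myl9 with 0.00417, -3.30 ± 0.48 for Tagln with 0.00344 and -2.8 ± 0.62 for Tpm2 with 0.0372. Myh11, Cnn1 and Mylk had log2 fold changes of -2.88, -3.58 and -3.21 and adjusted p of 0.0585, 0.065 and 0.121. Myl9 and Tagln stayed called with each library left out, and were the only 2 called without Y541S N 1 or any 1 of the D542G N libraries. Without Y541S N 2, 3 genes were called. Tpm2 lost its call without D542G ML 2 or WT ML 2, Myh11 gained one without D542G ML 3 or WT ML 1, Cnn1 without WT N 1, and 7 genes were called without WT N 3.

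D542G N and WT N were not told apart by these genes. Log2 fold changes lay between -0.88 ± 0.58 for Tpm2 and -0.08 ± 0.44 for Tagln, and 0 of 8 genes were called by edgeR (0.82% of all genes were called lower and 1.61% higher), with 0 at an unadjusted p under 0.05 and 0 called by DESeq2 or limma-voom. The median was -0.33 with all libraries and 0.38 without WT N 3, so that the direction itself rests on that library.

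Within the ML gate the contractile genes gave no genotype call. D542G and Y541S against WT, and D542G against Y541S, had 0 of 8 genes called by edgeR, DESeq2 and limma-voom, and 0.0% of all genes were called by edgeR in each; over all genes DESeq2 called 51 to 110 and limma-voom 3 to 93. The lowest edgeR adjusted p was 0.808, for Tpm2 in D542G against WT at a log2 fold change of -1.61 ± 0.59; Tpm2 was the single gene with an unadjusted p under 0.05 in these comparisons, and the 2 WT ML libraries with most Krt14 had most Tpm2.

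The level of the contractile genes did not follow that of the basal keratin Krt14 from library to library. The sum of the 8 genes was 504 to 695 CPM in D542G N, 5048 to 9608 CPM in Y541S N and 426 to 1433 CPM in WT N, against 88.7 to 309 CPM in the 9 ML libraries. For each 100 CPM of Krt14 there were 1.76, 3.21 and 1.84 CPM of Acta2 in D542G N, 43.6, 25.7 and 13.7 CPM in Y541S N, and 0.757, 0.929 and 26.8 CPM in WT N. D542G N, WT N 1 and WT N 2 thus had Krt14 as high as Y541S N with little Acta2, and WT N 3, with the least Krt14 of the N libraries, had a ratio within the Y541S range. The N libraries also differed in the epidermal keratinocyte marker Krt10. It had 1641 CPM in WT N 1, 4862 CPM in WT N 2 and 6005 CPM in Y541S N 3, against 10.2 to 386 CPM in the other N libraries. The part of epidermal cells in the Krt14 level was not tested, so Krt14 is not a measure of mammary basal cells alone. The ML libraries with most Krt14 were no higher in the sum: it was 160.4 CPM in WT ML 1 and 156 CPM in WT ML 2, and 165 CPM in WT ML 3, where Krt14 was 94.5 CPM. The single genes differed in direction. Tpm2 had 106, 56.8 and 29.5 CPM in WT ML 1, 2 and 3, and Tagln and Mylk were also highest in WT ML 1. Acta2 had 22.8, 40.5 and 56.3 CPM there, and Oxtr, Cnn1, Myh11 and Myl9 were also highest in WT ML 3. The keratins Krt5 and Krt17 stood otherwise between the mutants. Krt5 had 2014, 2711 and 2466 CPM in D542G N, 5341, 4661 and 11023 CPM in Y541S N, and 10670.2, 14857 and 1668 CPM in WT N. Krt17 had 1102, 869 and 1026.5 CPM in D542G N, 2060, 2425 and 2039 CPM in Y541S N, and 5170, 3890 and 1118 CPM in WT N. Both were thus lower in every D542G N than in every Y541S N library, as the contractile genes were, while WT N 1 and WT N 2 had much of both with little Acta2. The Acta2 values per 100 CPM of Krt14 are ratios within a library, which do not depend on how libraries were scaled.

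**Figure D3:**
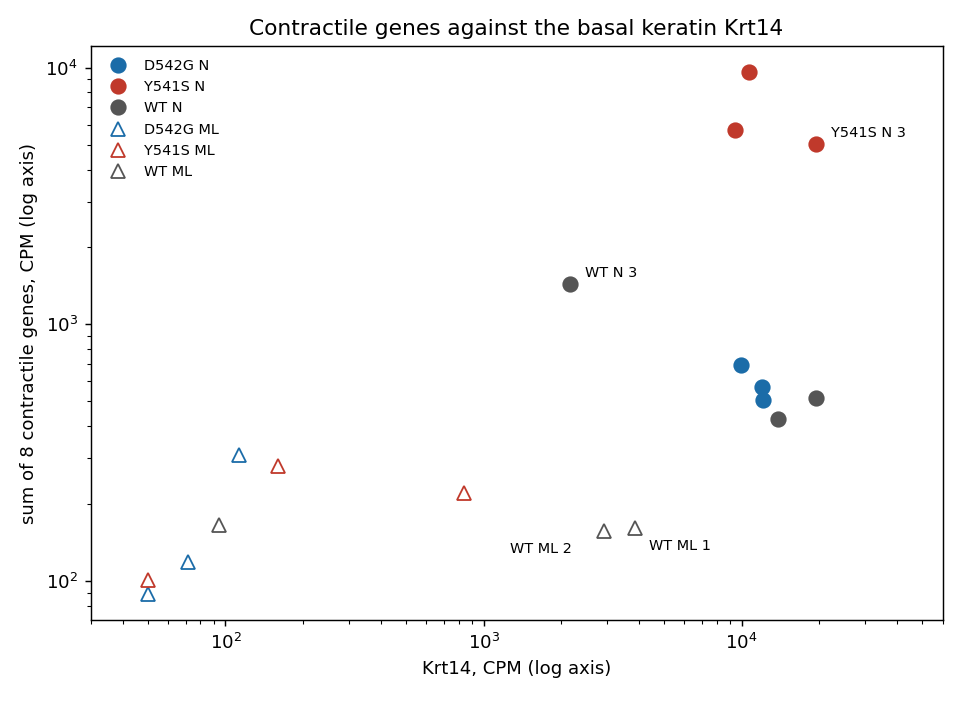
Sum of the 8 contractile genes against the basal keratin Krt14, both in CPM on log axes; each point is 1 library, filled circles are N and open triangles are ML. At similar Krt14 the Y541S N libraries (5048 to 9608 CPM) lie above D542G N (504 to 695 CPM) and WT N 1 and 2, and WT N 3 lies apart at low Krt14.

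The proportions among the 8 genes varied less than their sum. Acta2 made up 38.9 to 45.8% of the summed CPM in D542G N, 42.6 to 52.9% in Y541S N and 24.5 to 40.6% in WT N. Across the 9 N libraries each gene's log2(CPM + 1) correlated with the mean of the other 7 at 0.933 for Tpm2 to 0.995 for Myl9, with the 3 Y541S libraries standing apart from the rest. Across the 9 ML libraries, where levels are low, Tpm2 correlated at 0.191 and Oxtr at 0.316 with the other 7, and the remaining 6 at 0.663 to 0.926. The points share a gate and its sorting, and the values are a description.

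Among 9702 other protein-coding genes of at least moderate level, the 8 most like the contractile genes in both gates were Rgl1, Vim, Dpysl2, Fli1, Serping1, Ptprm, Tspan2 and Fblim1, by the smaller of the correlations across 9 N and 9 ML libraries. Rgl1, an exchange factor for Ral GTPases, correlated at 0.965 in N and 0.985 in ML. It had 27.7, 30.6 and 33.3 CPM in D542G N, 134, 161 and 84.3 CPM in Y541S N, and 22.9, 19.3 and 42.2 CPM in WT N. Vim, the intermediate filament vimentin, correlated at 0.967 and 0.956 and had 80.6, 79.0 and 89.1 CPM in D542G N, 488, 533 and 235 CPM in Y541S N, and 58.8, 86.0 and 185 CPM in WT N. Both were highest in Y541S N, and WT N 3 was the highest of the WT N libraries. Without WT N 3 the N correlations were 0.968 for Rgl1 and 0.969 for Vim.

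The related genes of the smooth muscle apparatus were counted from a list of 22 contractile and cytoskeletal genes. Over the genotypes, 13 were called higher and 2 lower in N than in ML, with a median log2 fold change of 0.76. Of all genes, 13.8% were called higher and 13.6% lower. Smoothelin (Smtn) rose by 3.13 ± 0.20, the adhesion molecule Mcam by 2.63 ± 0.21, filamin A (Flna) by 2.23 ± 0.17 and Csrp1 by 1.11 ± 0.12 on the log2 scale, with edgeR adjusted p of 5.05e-07 for Smtn to 2.24e-05 for Csrp1. In Y541S N against WT N, 8 of the 22 were called higher by edgeR, where 1.02% of all genes were called higher and 0.115% lower, and the median was 1.29. They were Smtn, Flna, Csrp1, Mcam, Actn1, Pdlim3, Pdlim7 and Itga8. In D542G N against Y541S N, 4 of the 22 were called lower, among them Mcam, Lmod1 and Pdlim3, where 1.01% of all genes were called lower and 0.421% higher.

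Not all of these genes shared the pattern of the 8. Smtn had 992, 807 and 1026 CPM in D542G N, 820, 954 and 444 CPM in Y541S N, and 236, 157 and 254 CPM in WT N. D542G N was thus as high as Y541S N for Smtn, which was called higher in D542G N than in WT N at a log2 fold change of 2.13 ± 0.34 with edgeR adjusted p = 0.00629. Flna likewise was called higher in D542G N than in WT N, at 1.40 ± 0.29 with adjusted p = 0.0219. Pdlim3 was called lower in N than in ML over the genotypes, at -1.20 ± 0.25 with edgeR adjusted p = 0.00303. It had 341, 276 and 146 CPM in Y541S N, 39.7, 50.8 and 80.2 CPM in WT N and 97.4 to 316 CPM in ML. Itga8 had 56.0, 42.9 and 27.5 CPM in Y541S N, at most 2.4 CPM in WT N and 8.9 to 65.3 CPM in ML. Desmin (Des), the intermediate filament of muscle, had 0.9 to 7.9 CPM in the 9 N libraries. Leiomodin 1 (Lmod1), an actin nucleator of smooth muscle, had 2.5, 5.5 and 6.5 CPM in D542G N, 50.2, 62.7 and 38.8 CPM in Y541S N, and 8.2, 5.6 and 26.2 CPM in WT N, in the order of the 8 genes.

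**Figure D4:**
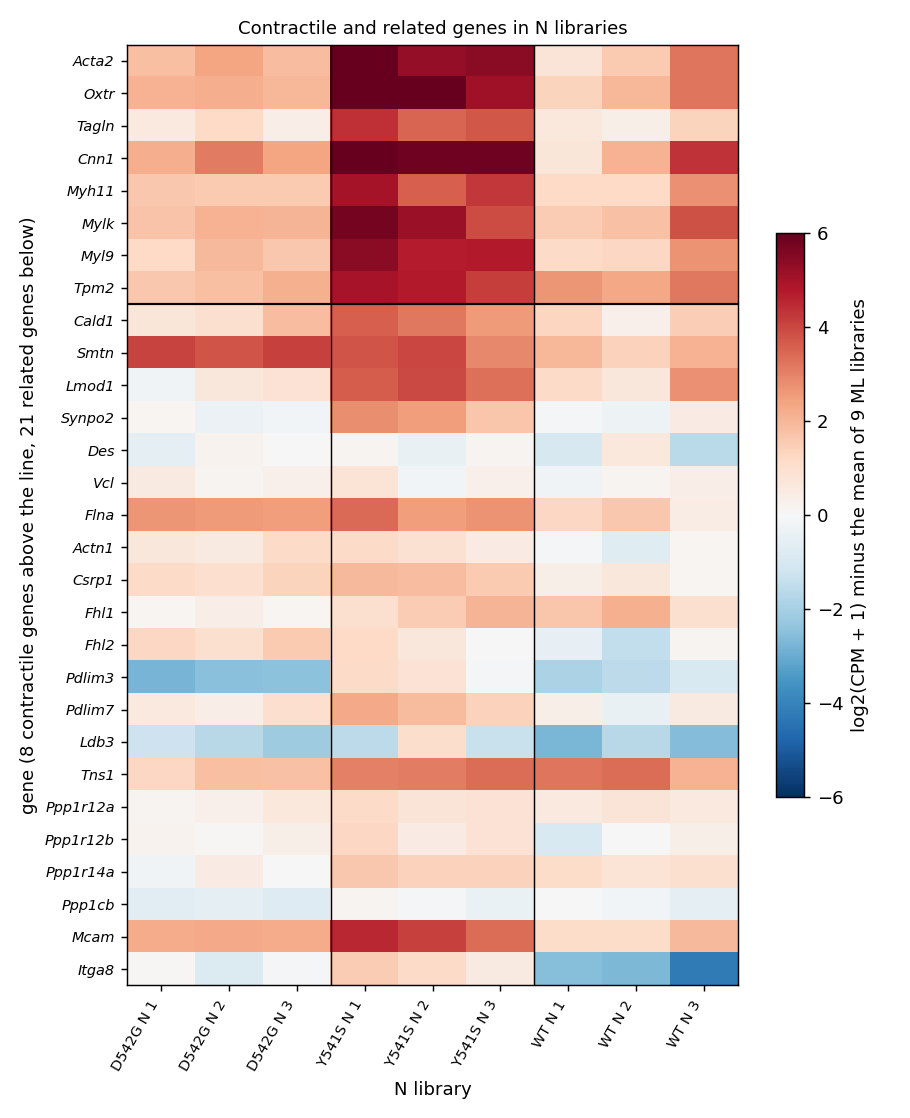
Colour shows log2(CPM + 1) in each of 9 N libraries minus the mean of the 9 ML libraries, capped at 6 either way, for the 8 contractile genes (above the line) and 21 of the 22 related genes (below it). The contractile genes are reddest in the 3 Y541S N columns, while Smtn and Flna are raised in D542G N as well.

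Near-identical relatives bear on how reads were assigned. Actg2, the gamma smooth muscle actin close in sequence to Acta2, had 1.8, 3.4 and 0.1 CPM in D542G N, 54.2, 16.2 and 30.5 CPM in Y541S N, and 0.7, 0.8 and 4.0 CPM in WT N, and was listed with at most 3.6 CPM in ML. How the counting treated reads that fit both actins is not given in the sources used here, so the split between Acta2 and Actg2 is uncertain. The skeletal and cardiac actins Acta1 and Actc1 lie wholly inside other genes and were listed at 0 throughout, which says nothing about them. Tagln2, the relative of Tagln found in many cell types, had 642 to 1209 CPM in N and 578 to 959 CPM in ML. Of 24 paralogs and isoform relatives 16 could be tested, and 6 were called higher and 2 lower in N than in ML over the genotypes; 13.8% of all genes were called higher and 13.6% lower, so the lower calls were near the background. Cnn2, a calponin of non-muscle cells, rose by 1.66 ± 0.17, Tpm4 by 0.74 ± 0.11 and the light chain Myl6 by 0.52 ± 0.12, while the non-muscle heavy chain Myh14 fell by 0.78 ± 0.17 on the log2 scale, with edgeR adjusted p of 1.29e-05 for Cnn2 to 0.00562 for Myl6. In Y541S N against WT N, Tpm1 alone was called in this list, at 1.02 ± 0.22 with edgeR adjusted p = 0.0373. There 1.02% of all genes were called higher and 0.115% lower.

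Regulators known for this programme were counted next. The list of 13 genes held SRF, its cofactors and partner factors, and also Nexn, which is an actin-binding protein and not a regulator. Of the 13 genes 12 could be tested. Over the genotypes 3, Nexn among them, were called higher and 1 lower in N than in ML, where 13.8% of all genes were called higher and 13.6% lower. Between genotypes in the N gate the median of the list lay at -0.25 in D542G over WT, 0.27 in Y541S over WT and -0.37 in D542G over Y541S. Nexn (nexilin), an actin-binding protein, rose by 2.40 ± 0.37, Yap1 by 0.79 ± 0.14 and Elk4 by 0.78 ± 0.23, and the cofactor Mrtfb fell by 0.83 ± 0.25 on the log2 scale, with edgeR adjusted p of 0.000353 for Nexn to 0.0237 for Mrtfb. Myocd, the cofactor of cardiac and smooth muscle, was at 0.3 CPM or less in all N libraries. Srf itself lies inside another gene and was listed at 0 in every library, which gives no information on it.

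In a list of 26 genes of oxytocin receptor signalling, which also holds the hormone gene Oxt, 25 could be tested. Of these, 6 were called higher and 3 lower in N than in ML over the genotypes. Against 13.8% and 13.6% of all genes, the lower calls were near the background. The calcium channel gene Cacna1c rose by 1.73 ± 0.26 and calmodulin gene Calm2 by 0.70 ± 0.11, while Calm3 fell by 0.90 ± 0.16 and the phospholipase gene Plcb4 by 0.84 ± 0.20 on the log2 scale, with edgeR adjusted p of 0.000252 for Cacna1c to 0.00663 for Plcb4. Between Y541S N and WT N, Rgs4, a regulator that dampens G protein signalling, was the only one of the list called, higher at 3.72 ± 0.75 with edgeR adjusted p = 0.0273. There 1.02% of all genes were called higher and 0.115% lower.

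Basal identity genes showed the gate difference, and some were called between genotypes in the N gate. Of 15 such genes other than Acta2, 14 were called higher and 1 lower in N than in ML over the genotypes, with a median log2 fold change of 4.39. Among all genes 13.8% were called higher and 13.6% lower. Snai2 rose by 4.92 ± 0.60, the laminin chain Lama3 by 3.83 ± 0.44 and Sparc by 3.12 ± 0.31, while Igfbp5 fell by 2.59 ± 0.29, with edgeR adjusted p of 9.37e-06 for Sparc to 5.04e-05 for Snai2. In Y541S N against WT N, the contractile set had a median of 3.12 with 4 genes called. The basal list had a median of 0.04 with 1 gene called higher, Igfbp5, where 1.02% of all genes were. That median includes WT N 3. Trp63 had 1164, 1171 and 116 CPM in WT N and 676, 344 and 608 CPM in Y541S N. Snai2 had 142, 180 and 36.6 CPM in WT N and 103, 103 and 138 CPM in Y541S N. For Sparc, Vim, Lgr5 and Igfbp5 every Y541S N library lay above every WT N library, as for 9.45% of all genes. In D542G N against Y541S N 3 of the 15 were called lower, Sparc, Vim and Lgr5, where 1.01% of all genes were.

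Vascular smooth muscle and pericytes express the same contractile genes, so their markers are given beside the Y541S N levels. The summed level of the 12 markers of pericytes and vascular smooth muscle was 114 to 132 CPM in D542G N, 394 to 466 CPM in Y541S N and 138 to 271 CPM in WT N. Mcam, which the list of related genes also holds, was 328, 248 and 146 CPM of this in Y541S N, and without it the sums were 48.5 to 64.0 CPM in D542G N, 115 to 321 CPM in Y541S N and 84.6 to 241 CPM in WT N. Much of the highest of these sums was Ndufa4l2. It had 3.4, 3.6 and 148 CPM in Y541S N, 126, 112 and 14.4 CPM in WT N, and 1.0, 15.6 and 2.0 CPM in D542G N. Mcam was the 1 of the 12 called higher in Y541S N than in WT N, where 1.02% of all genes were. The mean was higher in Y541S N than in WT N for 10 of the 12 (46.9% of all genes). It was higher in Y541S N than in D542G N for 12 of 12 (52.6% of all genes). The pericyte gene Rgs5 had 29.2, 34.3 and 45.0 CPM in Y541S N and 21.5, 27.4 and 12.7 CPM in WT N, and Y541S N lay above WT N without overlap for Rgs5 and Mcam, 2 of the 12, against 9.45% of all genes. Pdgfrb had 6.8, 6.5 and 9.9 CPM in D542G N, 9.4, 29.6 and 21.8 CPM in Y541S N, and 9.7, 4.3 and 7.6 CPM in WT N. Abcc9 had 1.9, 0.1 and 2.4 CPM in D542G N, 3.3, 16.2 and 6.0 CPM in Y541S N, and 1.6, 3.0 and 4.8 CPM in WT N. Higd1b had at most 2.3 CPM in any N library, and Myocd was near 0. Over the genotypes, 3 of the 12 were called higher in N than in ML (Mcam, Cspg4 and Ndufa4l2) and 1 lower (Notch3). Among all genes 13.8% were called higher and 13.6% lower. The part of such cells in the contractile gene levels was not tested.

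Markers of other cell types were summed in the same way. The 10 fibroblast markers summed to 462 to 576 CPM in D542G N, 2236 to 5498 CPM in Y541S N and 473 to 659 CPM in WT N. Most of the Y541S sum was Postn, with 5162, 2092 and 1936 CPM. The mean of each of the 10 was higher in Y541S N than in WT N (46.9% of all genes). The libraries did not overlap for 4 of them, Col1a2, Col3a1, Pdgfra and Postn, against 9.45% of all genes. Col1a2 had 26.8, 20.6 and 34.0 CPM in D542G N, 72.2, 71.0 and 48.7 CPM in Y541S N, and 11.4, 22.9 and 20.1 CPM in WT N. Pdgfra had 14.2, 35.2 and 6.8 CPM in Y541S N and at most 2.2 CPM in WT N. Col1a1 had 2.8 to 24.9 CPM in Y541S N and 7.2 to 17.0 CPM in WT N, and Dpt at most 0.9 CPM in Y541S N. Without Postn the sums were 364 to 471 CPM in D542G N, 299 to 336 CPM in Y541S N and 90.3 to 189 CPM in WT N. Most of that D542G N sum was Dcn, with 371, 255 and 284 CPM. Dcn had 175, 128 and 70.7 CPM in Y541S N and 112, 20.4 and 98.9 CPM in WT N. The mean was higher in Y541S N than in D542G N for 7 of the 10 markers (52.6% of all genes). Postn did not pass between Y541S N and WT N in edgeR, at a log2 fold change of 2.82 ± 0.74 with adjusted p = 0.0884. The 10 endothelial markers summed to 157 to 253 CPM in D542G N, 379 to 917 CPM in Y541S N and 191 to 238 CPM in WT N, against 117 to 344 CPM in the ML libraries. The mean of each of the 10 was higher in Y541S N than in WT N (46.9% of all genes), without overlap for 7 (9.45% of all genes). The lowest edgeR adjusted p there was 0.163, for Plvap at a log2 fold change of 1.53 ± 0.49. Over the genotypes, 7 of the 10 endothelial markers were called higher in N than in ML and 1 lower. Of the 10 fibroblast markers 2 were called higher, Dpt and Postn. Among all genes 13.8% were called higher and 13.6% lower. Skeletal muscle markers summed to at most 13.2 CPM in D542G N, 12.2 CPM in Y541S N and 27.1 CPM in WT N. Epidermal keratinocyte markers summed to 31.1 to 743 CPM in D542G N, 18.0 to 11730 CPM in Y541S N and 498 to 10059 CPM in WT N, and did not follow the contractile genes, since Y541S N 1 and Y541S N 2 were at 21.7 CPM or less. Immune markers summed to at most 150.4 CPM in any N library. The part of these cells in the contractile gene levels was not tested.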

How the data were processed

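RNA of sorted mammary cells was measured in 18 libraries; per the labels, Nextera XT libraries were prepared from its cDNA. The count column of the authors' deposited tables holds whole-number counts per gene; the gene width, another deposited number, was not used in a test. The submitters' processing notes name the genome build GRCm38 and, as given here, no aligner, counter or strand setting. Identifiers were matched to GENCODE M21 (52489 of 52636). The genes, the gene lists and the comparisons were chosen with earlier results of these data known.

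Counts were analysed with edgeR 4.0.16 in R 4.3.3. Genes were filtered by filterByExpr (minimum count 10, total 15), leaving 18298, TMM gave scaling factors of 0.85 to 1.10, and 1 quasi-likelihood fit of the 6 groups over all libraries left 12 residual degrees of freedom; the biological coefficient of variation was 0.652. Each comparison was a contrast, adjusted by Benjamini-Hochberg over all genes tested and called at adjusted p under 0.05. The fit was tested on simulated data. Replicates differed by more than counting error, so counts limit precision less than the spread between 3 libraries a group.

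Alternatives were DESeq2 1.42.0 (its size factors, and its Wald test), limma 3.58.1 (voom with quality weights), no filter, only the groups compared, a replicate block and each library left out. All 9 N and ML libraries of the same genotype and number correlated in their deviations from group means (0.177 to 0.507). Those of the same genotype and different number correlated at -0.449 to 0.178. WT N 2 correlated as much with WT ML 1 (0.178) as with WT ML 2 (0.177). The numbers were taken to pair libraries in the replicate block only. The main fit used no pairing, so its tests of N against ML and of interactions treated all libraries as independent. The pairing comes from the data, as the labels do not state it. From each list up to 4 called genes with the smallest p in N against ML were named, together with Actg2, Acta1, Actc1 and Tagln2; genes called between genotypes, Des, Lmod1, Srf, Myocd and the single markers were named after their values were seen. Likeness was the smaller of the correlations across 9 N and 9 ML libraries with the mean log2(CPM + 1) of the 8 genes, among protein-coding genes with an average log2 CPM of at least 3. Results of 2 listed genes are not reported here.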

Additional observations from a re-analysis of the deposited data

How the results depend on the processing

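All 8 genes stayed called in N over ML across the genotypes under each alternative, and none of the 8 genes was called in D542G N against WT N or between genotypes in ML under any. DESeq2 size factors and the missing filter changed no count beyond 1.5 times. Where 2 genes were called in WT (N against ML), DESeq2 gave 7, limma-voom 4, the replicate block 4, the groups compared alone 0 and WT N 3 and Y541S N 3 both left out (chosen after the data were seen) 1. Against 1 gene in D542G, these gave 4, 8, 3, 4 and 4. Against 4 genes in Y541S N over WT N, DESeq2 gave 7, limma-voom 8, the groups compared alone 0 and both left out 7. There DESeq2 called 815 of 17103 genes higher and limma-voom 1251 of 18298. Against 5 in D542G N over Y541S N, DESeq2, limma-voom and the groups compared alone gave 8 each. In that comparison DESeq2 called 736 of 17450 genes lower and limma-voom 780 of 18298. The interaction of gate with Y541S against WT, with 0 called, gave 4 with DESeq2, 6 with limma-voom and 5 with both left out; that of D542G against Y541S gave 4, 4, 1 with the groups compared alone and 1 with both left out. Leaving out single libraries gave 0 to 4 calls in WT, 0 to 4 in D542G, 7 to 8 in Y541S, 1 to 6 in Y541S N over WT N, 2 to 7 in D542G N over Y541S N and 0 to 1 in the interaction of D542G against Y541S.

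The median log2 fold change changed sign in comparisons without calls. In D542G N over WT N it was -0.33, against 0.37 with limma-voom, and 0.38 without WT N 3 or with both left out; single libraries left out gave -0.63 to 0.38. In D542G ML over WT ML it was 0.16, against -0.49 with limma-voom, -0.09 with the replicate block and -0.61 to 0.58 with single libraries left out (lowest without D542G ML 3); in D542G ML over Y541S ML it was -0.31, against 0.03 without D542G ML 2 and 0.12 without Y541S ML 2 (range -1.02 to 0.12). In the interaction of D542G against WT it was -0.74, against 0.87 with limma-voom, 0.37 without D542G ML 3 (range -1.12 to 0.37), and 0.24 without WT N 3 or with both left out. The causes were not tested. The replicate block changed no other count beyond 1.5 times; across genotypes the numbers pair nothing, and in D542G N over Y541S N it called 5 genes, with Cnn1 in place of Tpm2.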
